A study of Mus musculus with 10 samples.

Results

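Il33, the 2 chains of its receptor (Il1rl1 and Il1rap) and the lipoxygenase gene Alox15 were followed through 10 RNA-seq libraries of sorted mouse mammary luminal cells. The 4 genes were chosen by their normalized counts, from 26312 genes and with earlier results of these data in view, because several had lower values in RSK2 knockout libraries. All 4 were among the 15180 genes that passed the filter on low values (a mean of at least 10 normalized counts). The cells came from the 4th mammary glands of C57BL/6J mice aged 12 weeks and were sorted as EpCAM and Sca-1 positive and CD49b negative, with CD49f given as low in one label and as positive in another. Wild-type mice, labelled RSK2(+/+) and called WT here, gave 3 libraries in estrus and 2 in diestrus. Knockout mice, labelled RSK2(-/-) and called KO, gave the same numbers at each stage. How the RSK2 allele was made is not given in the sources used here, nor whether a library holds 1 mouse or several, so the errors measure the spread between libraries. KO titles contain the word WT beside RSK2(-/-), and groups follow the genotype notation.

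IL-33 is a cytokine of the IL-1 family that is stored in the nucleus of barrier epithelial, endothelial and stromal cells and acts as an alarm signal once it is released from damaged cells. It binds ST2, the product of Il1rl1, which recruits the accessory chain encoded by Il1rap and signals through MyD88 to NF-kB. A soluble form of ST2, made from the same gene, captures IL-33. The answering cells are mostly of the innate immune system (group 2 innate lymphoid cells, mast cells and eosinophils). Alox15 encodes a lipoxygenase that inserts oxygen into arachidonic and linoleic acid, and it is known as a gene induced by the type 2 cytokines that IL-33 elicits. RSK2, encoded by Rps6ka3, is a kinase activated by ERK1/2.

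Il33 (ENSMUSG00000024810) lies on GRCm38 chromosome 19, 29925114 to 29960718, Il1rl1 (ENSMUSG00000026069) on chromosome 1, 40429570 to 40465415, and Il1rap (ENSMUSG00000022514) on chromosome 16, 26581704 to 26730117, all on the plus strand. Alox15 (ENSMUSG00000018924) lies on the minus strand of chromosome 11, 70344152 to 70352031. GENCODE M21 lists 5 transcripts each for Il33 and Il1rl1, 7 for Il1rap and 2 for Alox15. The deposited value of a gene sums the reads of its transcripts, so the membrane and soluble forms of ST2 were not measured apart, nor was the use of separate start sites. Il33 and Il1rl1 each have 2 starts in RefSeq (GRCm38.p6), and Il1rap has 1. The 250 bases before each of these 5 starts are shown because reads from both starts of Il33, and from both starts of Il1rl1, enter 1 value. The capitals mark the matches of the motifs given after the sequences, and each is written 5′ to 3′ on the plus strand.
Il33, outer start, chr19:29924863-29925112: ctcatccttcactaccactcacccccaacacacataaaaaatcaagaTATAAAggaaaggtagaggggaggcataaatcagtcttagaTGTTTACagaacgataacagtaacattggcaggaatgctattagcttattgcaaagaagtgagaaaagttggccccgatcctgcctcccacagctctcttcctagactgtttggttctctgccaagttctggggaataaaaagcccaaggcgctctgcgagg
Il33, inner start, chr19:29945540-29945789: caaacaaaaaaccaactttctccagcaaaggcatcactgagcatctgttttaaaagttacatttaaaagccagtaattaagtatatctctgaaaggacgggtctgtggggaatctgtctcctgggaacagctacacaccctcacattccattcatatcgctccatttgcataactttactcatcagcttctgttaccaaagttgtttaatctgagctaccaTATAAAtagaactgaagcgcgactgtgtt
Il1rl1, outer start, chr1:40429320-40429569: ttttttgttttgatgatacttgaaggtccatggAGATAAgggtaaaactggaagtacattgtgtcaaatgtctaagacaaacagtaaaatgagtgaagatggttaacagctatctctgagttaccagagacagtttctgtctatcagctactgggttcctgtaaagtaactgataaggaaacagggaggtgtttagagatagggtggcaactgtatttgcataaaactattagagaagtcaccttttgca
Il1rl1, inner start, chr1:40439379-40439628: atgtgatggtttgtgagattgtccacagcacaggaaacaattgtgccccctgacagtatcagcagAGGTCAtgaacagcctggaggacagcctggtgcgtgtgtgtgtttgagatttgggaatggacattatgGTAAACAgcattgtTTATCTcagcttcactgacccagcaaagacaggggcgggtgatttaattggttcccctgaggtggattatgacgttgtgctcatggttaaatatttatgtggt
Il1rap, chr16:26581455-26581704: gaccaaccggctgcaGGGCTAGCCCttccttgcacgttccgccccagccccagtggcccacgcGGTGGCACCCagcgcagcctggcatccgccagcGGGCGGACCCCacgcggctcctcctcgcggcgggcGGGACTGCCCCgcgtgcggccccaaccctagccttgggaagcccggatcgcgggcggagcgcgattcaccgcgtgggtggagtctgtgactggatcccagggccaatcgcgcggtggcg

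Both strands were searched for 9 motifs. The hormone receptor motifs were the full palindromic estrogen response element and a single arm of it, AGGTCA. The lineage motifs were those of forkhead factors, TGTTTAC, of GATA factors, AGATAA, and of ETS factors, CCGGAAG. The signal-dependent motifs were those of AP-1, TGANTCA, of STAT factors, TTCNNNGAA, and of NF-kB, which is GGG followed after any 5 bases by CC. The TATA box was searched as TATAAA. The single arm can lie within the full element. The forkhead letters, the pattern of factors such as FOXA1, were present before the outer start of Il33 (-162 to -156 from the start) and before the inner start of Il1rl1 (-117 to -111, minus strand), against 3.17% of 32851 promoter windows of the same length. The single estrogen response arm was present before the inner start of Il1rl1 (14.02% of all windows), and the GATA letters before both starts of Il1rl1 (9.99%). The TATA letters stood at -29 to -24 from the inner start of Il33 and at -203 to -198 from its outer start (12.4%). The NF-kB letters were found 6 times, in part overlapping, in the Il1rap window and not in the other 4, and 45.8% of all windows hold them. The full estrogen response element, AP-1, STAT and ETS letters were not in these 5 windows. The Il1rap window had a GC content of 74.4% and 30 CG steps, whereas the other 4 windows had 37.6% to 46.4% and 0 to 4 CG steps, around a median of 52.4% and 6 over all windows. These matches describe the letters and show no binding.

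The 12 hormone-sensing luminal markers summed to between 284283 and 409308 normalized counts in every library. Most of this sum was Krt8 and Krt18, keratins of luminal cells in general, at means of 152341 and 105934 counts. The sum therefore cannot tell hormone-sensing from other luminal cells. Of the hormone receptors in the list, Prlr had a mean of 38103 counts, Esr1 of 2130 and Pgr of 1100. Library totals of the deposited values ran from 14108057 to 15307238. Rps6ka3 itself was not lower in KO, at 158, 156 and 164 counts in KO estrus and 136, 128 and 137 in WT estrus, and at 156 and 165 in KO diestrus and 165 and 139 in WT diestrus. The count covers the whole gene and cannot show whether a disrupted transcript remained, so the direction of each difference rests on the labels. The KO estrus libraries also differed with transcript length. With each doubling of exon length, log2 values shifted by -0.104, -0.0276 and -0.0614 in KO estrus 1, 2 and 3 and by -0.0188 to 0.0506 in the other 7 libraries. The part of this trend in the results below was measured by removing it. Fewer cells of a type and less RNA per cell cannot be told apart in such libraries.

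Alox15 had the highest level per length of the 4 genes, at a mean of 365 normalized counts per kilobase of merged exon, above 83.7% of tested genes. Il33 stood at 65.8 counts per kilobase (above 47.8% of tested genes), Il1rl1 at 10.6 (13.7%) and Il1rap at 2.09 (1.18%). Alox15 was first of the 4 in each of the 10 libraries. The order below it was Il33, Il1rl1, Il1rap, except that Il1rap lay above Il1rl1 in KO estrus 2 and Il1rl1 above Il33 in KO diestrus 2. The merged exons of Il1rap, 11360 bases, exceed its longest transcript, 4520 bases, which lowers its value per length. By counts not divided by length, Il1rl1 had a mean of 73.2 (above 27.3% of tested genes) and Il1rap of 23.7 (11.6%). The receptor was thus measured at low levels in these libraries, and its accessory chain at a mean of 23.7 counts where the filter required 10.

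Il33 had 255, 188 and 418 normalized counts in the WT estrus libraries 1, 2 and 3, and 124, 121 and 44 in the KO estrus libraries. At diestrus it had 509 and 150 counts in WT and 59 and 31 in KO. Each KO library lay below each WT library of its stage, and also below all 5 WT libraries together. The means were 287 ± 118 (SD, n = 3) against 96.3 ± 45.3 at estrus and 329.5 ± 254 (n = 2) against 45 ± 19.8 at diestrus, which is 33.6% and 13.7% of the WT level. The order of the groups was WT diestrus, WT estrus, KO estrus, KO diestrus, with overlap between the 2 WT groups and between the 2 KO groups. As a description, since this contrast chose the genes, the log2 difference of KO from WT was -1.63 ± 0.50 (SE from the limma fit) at estrus and -2.66 ± 0.62 at diestrus. The WT diestrus libraries stood 509 to 150 apart, and the diestrus difference was -1.78 without WT diestrus 1 and -3.54 without WT diestrus 2.

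Il1rl1, the ligand-binding chain, had 130, 49 and 137 counts in WT estrus 1, 2 and 3 and 22, 14 and 43 in KO estrus. At diestrus it had 73 and 107 counts in WT and 60 and 97 in KO. The KO estrus libraries were low and lay below all other libraries, while the diestrus libraries of both genotypes overlapped. The means were 105 ± 48.9 against 26.3 ± 14.98 at estrus (SD, n = 3 and 3), 25% of the WT level, and 90 ± 24.0 against 78.5 ± 26.2 at diestrus (n = 2 and 2), 87.2%. WT estrus, WT diestrus and KO diestrus followed each other in that order with overlap, and KO estrus came last. The log2 difference of KO from WT was -1.97 ± 0.46 (SE) at estrus and -0.21 ± 0.56 at diestrus, and without KO diestrus 1 or WT diestrus 2 the latter turned to 0.13 and 0.06. The difference at estrus was -1.87 after each library's trend on exon length was removed.

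Il1rap, the chain shared by the receptors of IL-1, IL-33 and IL-36, had 23, 29 and 25 counts in WT estrus and 6, 26 and 13 in KO estrus. At diestrus it had 34 and 9 counts in WT and 27 and 45 in KO. The groups overlapped at both stages, and the means were on opposite sides: 25.7 ± 3.06 in WT against 15 ± 10.1 in KO at estrus, and 21.5 ± 17.7 in WT against 36 ± 12.7 in KO at diestrus. The log2 difference of KO from WT was -0.94 ± 0.55 (SE) at estrus, and leaving out KO estrus 1 gave -0.45, leaving out KO estrus 2 -1.42. At diestrus it was 0.94 ± 0.67, 0.04 without WT diestrus 2 and 1.84 without WT diestrus 1. At counts of this size each value carries a large counting error, and no order of the 4 groups stood outside their spread.

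Alox15 had 1244, 765 and 464 counts in WT estrus and 368, 442 and 459 in KO estrus. At diestrus it had 2367 and 1810 counts in WT and 536 and 493 in KO. The KO libraries of both stages lay close together, whereas the WT libraries spread and the WT diestrus libraries were the highest. The WT and KO libraries did not overlap at either stage, but at estrus WT estrus 3 stood only just above KO estrus 3. The means were 824 ± 393 against 423 ± 48.4 at estrus (SD, n = 3 and 3), 51.3% of the WT level, and 2088.5 ± 394 against 514.5 ± 30.4 at diestrus (n = 2 and 2), 24.6%. The log2 difference of KO from WT was -0.85 ± 0.28 (SE) at estrus and -2.01 ± 0.34 at diestrus. The estrus value was -0.50 without WT estrus 1 and -1.21 without WT estrus 3.

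**Figure D1:**
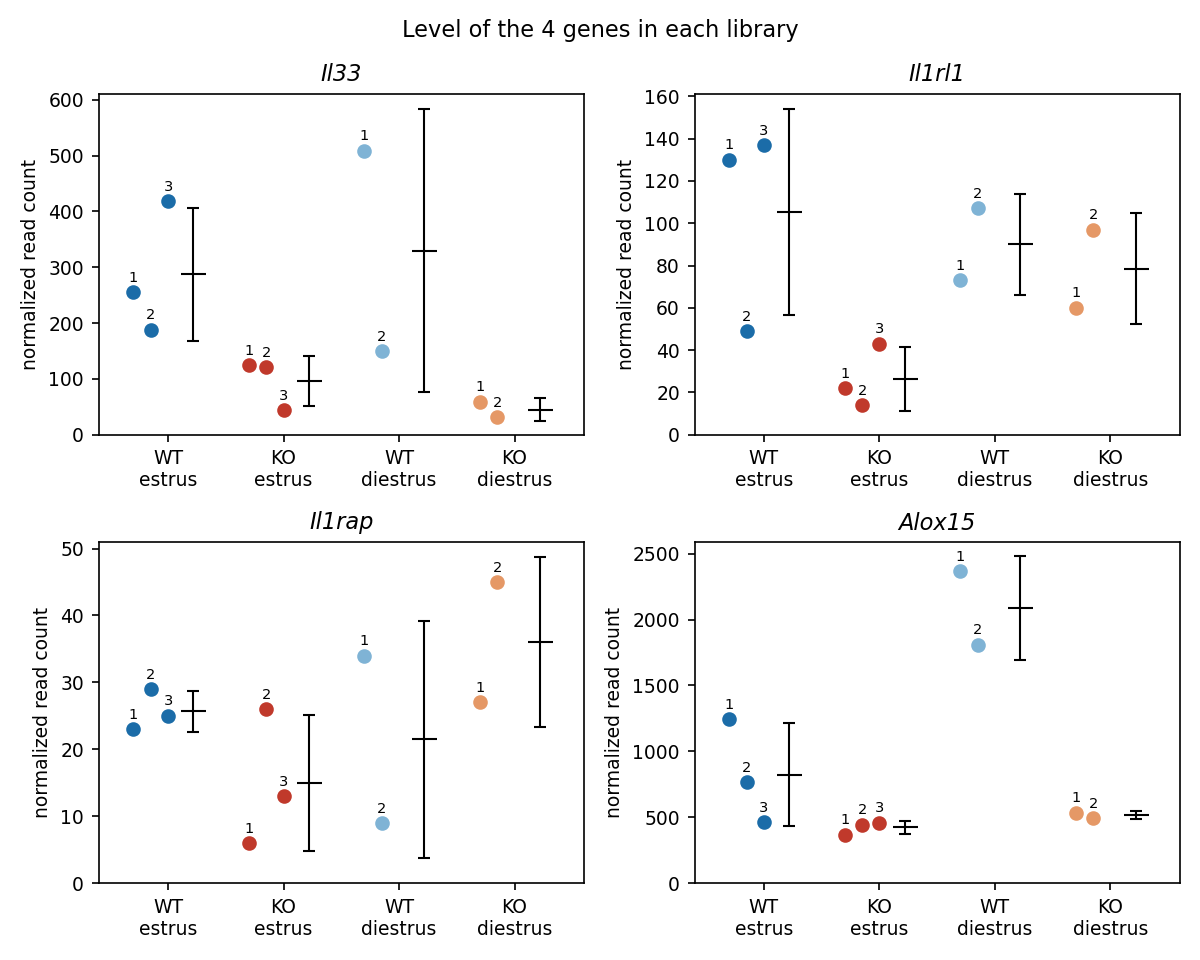
Normalized read count (y axis, linear) of Il33, Il1rl1, Il1rap and Alox15 in each library (points, numbered by replicate) with bars for group means and SDs, by genotype and stage. Il33 and Alox15 have lower values in KO than in WT at both stages, Il1rl1 at estrus, and the Il1rap groups overlap.

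At estrus 3 of the 4 genes had every KO library below every WT library, a pattern found in 13.1% of the tested genes, and at diestrus 2 of the 4 did, against 21.6% of tested genes. Il33 and Alox15 showed it at both stages, as did 2.96% of tested genes. As the genes were chosen for lower values in KO, these counts describe the choice and test nothing. By limma 4.2% of all tested genes were called at estrus in either direction, and at diestrus 0.0264% were called higher and 0.0132% lower.

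The difference between the stages, averaged over the genotypes, was not used to choose the genes, and it was tested. The same libraries enter both, and the 2 differences are independent only if WT and KO libraries vary alike. For Alox15 the coefficient of variation was 47.7% and 18.9% in WT (estrus, diestrus) and 11.4% and 5.91% in KO, so its high WT diestrus values bear on both. Averaged over the genotypes, Alox15 was lower at estrus than at diestrus. Its log2 difference was -0.86 ± 0.22 (SE; limma, adjusted p = 0.0381 over 15180 genes), 1.82-fold, and in both WT and KO each estrus library lay below each diestrus library. That pattern was found in 4.45% of the tested genes for both genotypes together and in 8.99% for WT alone, where Alox15 was the 1 of the 4 to show it, and limma called 4.55% of them lower at estrus (7.92% in either direction). In WT the diestrus mean was 2.53-fold the estrus mean and in KO 1.22-fold. The log2 difference of estrus from diestrus was -1.44 ± 0.31 (SE) in WT and -0.29 ± 0.31 in KO, so in KO it was smaller than its SE. The KO libraries were apart by a narrow gap, with at most 459 counts at estrus and at least 493 at diestrus. In KO alone 26% of tested genes had estrus below diestrus without overlap. The call rested on a narrow margin. It was lost without any 1 of the 4 diestrus libraries (adjusted p from 0.116 without KO diestrus 1 to 0.135 without KO diestrus 2), without WT estrus 2 (0.0583), KO estrus 1 (0.0718) or KO estrus 2 (0.0537), and kept when WT estrus 1 (0.0120), WT estrus 3 (0.0409) or KO estrus 3 (0.0413) was left out.

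The other 3 genes did not pass that test. Il33 had a log2 difference of estrus from diestrus of 0.49 ± 0.40 (limma, adjusted p = 0.445), Il1rl1 of -0.76 ± 0.36 (adjusted p = 0.195) and Il1rap of -0.44 ± 0.43 (adjusted p = 0.546). The Il33 value was 0.05 without WT diestrus 2 and 0.93 without WT diestrus 1, and the Il1rap value -0.89 and 0.02 in the same fits. Within KO, Il1rl1 had 14 to 43 counts at estrus and 60 to 97 at diestrus, without overlap, a 2.98-fold difference of the means. Within WT its diestrus mean was 0.854-fold the estrus mean. The separation within KO (estrus below diestrus) held for 3 of the 4 genes and for 26% of all tested genes, and its KO estrus libraries also entered the choice of the genes. By their log2 differences, WT and KO stood farthest apart at diestrus for Il33 and Alox15 and at estrus for Il1rl1. Without WT diestrus 1 the Il33 difference was -1.78 at diestrus, against -1.63 at estrus. Because the choice used the genotype differences, their change between stages was not tested.

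**Figure D2:**
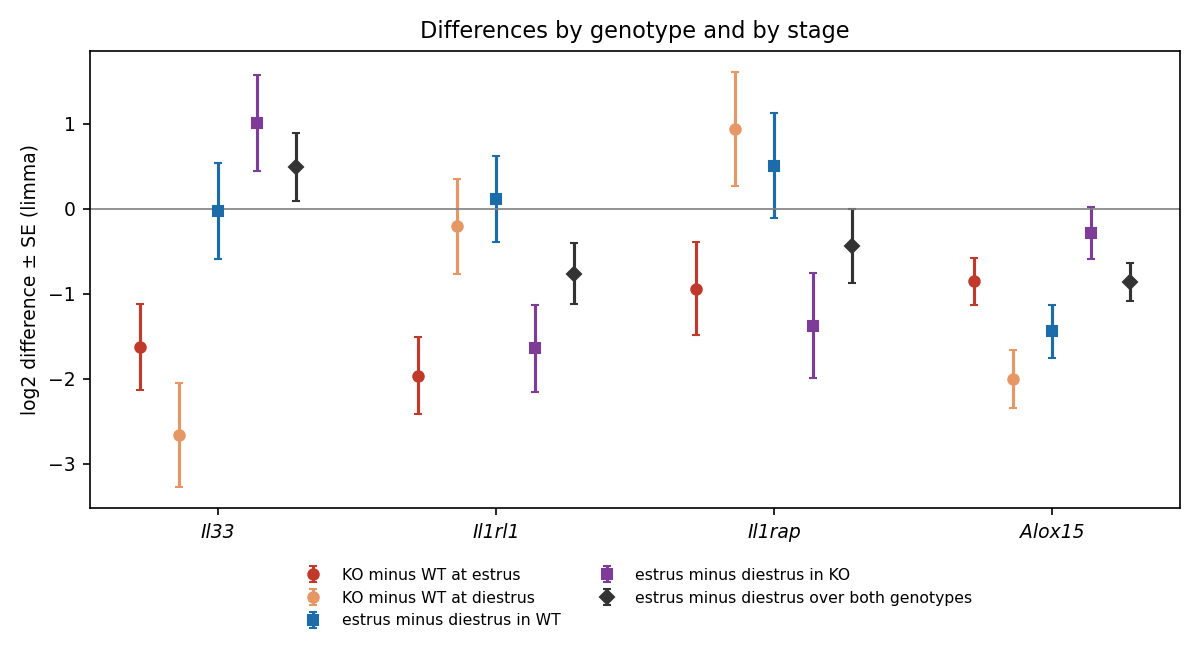
Log2 difference (y axis; points, with SE from limma) of the 4 genes for KO minus WT at each stage, estrus minus diestrus in each genotype, and estrus minus diestrus averaged over both. Alox15 is the gene whose averaged stage difference, -0.86, passed the test.

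Il1rl1 sits in a row of 6 receptor genes of the IL-1 family on chromosome 1, 40074079 to 40551705, in the order Il1r2, Il1r1, Il1rl2, Il1rl1, Il18r1 and Il18rap, and Il18r1 starts 137 bases after the end of Il1rl1 on the same strand. Il1r1, the signalling receptor of IL-1, fell at estrus from 798 ± 187 counts in WT (SD, n = 3) to 458 ± 53.6 in KO (log2 -0.78 ± 0.18, limma adjusted p = 0.0408). Il18r1, the ligand-binding chain of the IL-18 receptor, had 877, 739 and 711 counts in WT estrus and 326, 456 and 650 in KO estrus. The groups did not overlap, but the test was not passed (log2 -0.75 ± 0.21, limma adjusted p = 0.0615). Its partner chain Il18rap had 193, 189 and 199 counts in WT estrus against 91, 58 and 160 in KO estrus (log2 -1.03 ± 0.32, adjusted p = 0.0757 by limma). Il1rl2, the receptor of the IL-36 cytokines, had a log2 difference of -0.21 ± 0.23, and Il1r2, the decoy receptor of IL-1, was below the filter with 1 to 17 counts. At diestrus the same genes lay between -0.26 and 0.31. The Il1r1 call at estrus was lost after removal of the length trend (limma adjusted p = 0.0668) and in 8 of the 10 fits with 1 library left out, all but those without WT estrus 3 or KO estrus 2.

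**Figure D3:**
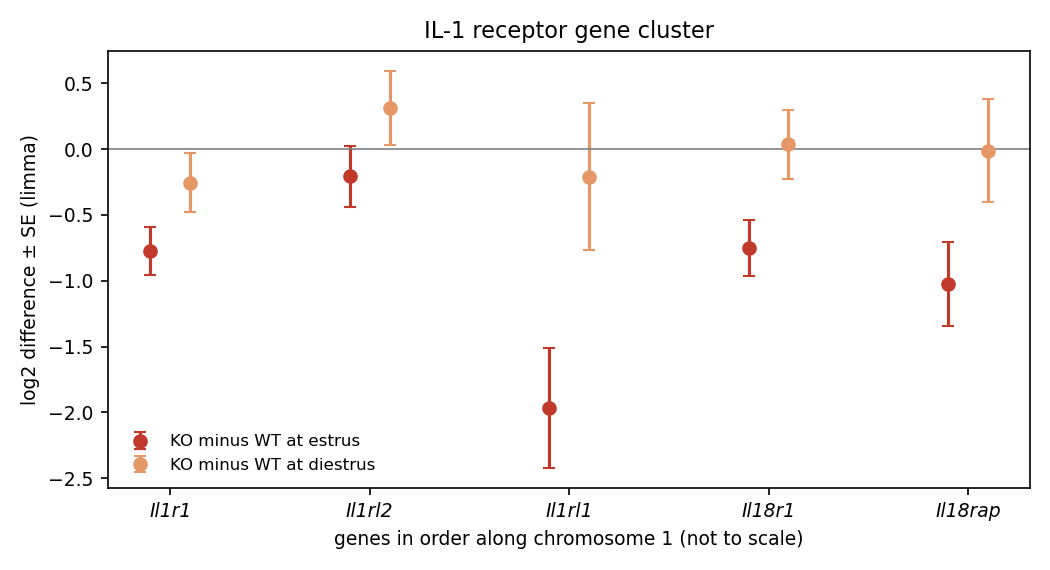
Log2 difference of KO from WT (y axis; points, with SE from limma) at estrus and diestrus for the 5 tested receptor genes of the chromosome 1 row, in order of position. At estrus they run from -0.21 for Il1rl2 to -1.97 for Il1rl1, all below 0, as do 7740 of the 15180 tested genes. Il1rl1 was chosen for lower values in KO, and of the others Il1r1 alone passed the limma test at estrus. At diestrus the 5 genes lie between -0.26 and 0.31.

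The nearest genes of the 4 were looked at by a rule added after the values were seen (2 tested protein-coding genes on each side). Of these 16 genes, 1 (Il1r1) passed the test for KO against WT at estrus, where 4.2% of all tested genes did. For the stages 2 passed (Il1r1 and Uhrf2), where 7.92% of all tested genes did. Counts this small cannot be told apart from those shares. Alox12, the platelet-type lipoxygenase near Alox15, had 184, 51 and 156 counts in WT estrus, 365, 308 and 42 in KO estrus, 104 and 240 in WT diestrus and 50 and 17 in KO diestrus. It spread widely within groups and did not pass the test for genotype at either stage or for stage.

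Around the 4 genes, 90 tested genes from 8 lists of the same pathways were compared, as listed in the processing notes. At estrus 6 of the 90 fell in KO and none rose by limma, which is 6.67% lower against 2.94% of all tested genes, and 0 against 1.26% higher. At an unadjusted limma p under 0.05 there were 32 of the 90, and 3919 of the 15180 tested genes. The median log2 difference was -0.12 over the 90 genes and -0.01 over all tested genes. Beside Il1r1, those that fell were Tollip, a brake on IL-1 receptor kinases, from 3824 ± 383 to 2551 ± 265 counts, Map3k7, the kinase TAK1 that passes the signal to NF-kB, from 660 ± 69.0 to 396 ± 68.4, and Jak2, a cytokine receptor kinase, from 2730 ± 616 to 1412 ± 320. The other 2 were Capn2, a calpain subunit, from 3812 ± 361 to 2478 ± 104, and Acsl3, which activates fatty acids with coenzyme A, from 1753 ± 211 to 1043 ± 270. Their log2 differences were -0.58 ± 0.13, -0.75 ± 0.17, -0.95 ± 0.20, -0.62 ± 0.12 and -0.77 ± 0.19, with limma adjusted p of 0.0306 to 0.0446. The count of 6 was 10 if KO estrus 3 was left out, 1 for WT estrus 3 or either WT diestrus library, 0 for WT estrus 2, KO estrus 1 or either KO diestrus library, and 1 (Jak2) after removal of the length trend.

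By list, 1 of 6 tested receptors (median log2 -0.48), 2 of 29 signalling genes (-0.23), 1 of 10 processing genes (-0.11), 1 of 14 alarmin and type 2 receptor genes (-0.11) and 1 of 15 arachidonate release and lipid peroxide genes (0.23) fell in KO at estrus. The 2 tested ligands (0.20), 6 lipoxygenase and leukotriene genes (-0.29) and 8 cyclooxygenase genes (0.10) had no call by limma. Of the lipoxygenase list, Ggt1, which removes the glutamyl residue from glutathione-bearing leukotrienes, had 2132 ± 801 counts in WT and 1766 ± 703 in KO at estrus, and 2181.5 ± 163 in WT and 573.5 ± 122 in KO at diestrus (log2 -1.94 ± 0.41, limma adjusted p = 0.165). Dpep2, a dipeptidase of leukotriene conversion, ran from 257 to 4816 counts over the libraries. At diestrus 0 of the 90 genes were called between the genotypes by limma, where 6 of all tested genes (0.0395%) were called. There 9 of the 90 had an unadjusted limma p under 0.05, and 899 of the 15180 tested genes.

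Between the stages, 9 of the 90 genes passed the test. At estrus 5 were higher, or 5.56% against 3.38% of all tested genes, and 4 were lower, or 4.44% against 4.55%. Il18, the IL-1 family cytokine made in its inactive form by epithelia, rose at estrus (log2 1.08 ± 0.22, limma adjusted p = 0.0213). It had 42, 40 and 47 counts in WT estrus, 60, 61 and 50 in KO estrus, 47 and 29 in WT diestrus and 15 and 13 in KO diestrus. Bcl3, a nuclear partner of NF-kB (0.75 ± 0.13), Pycard, the inflammasome adaptor (0.90 ± 0.20), Gpx1, a glutathione peroxidase (0.50 ± 0.12), and Cbr1, a carbonyl reductase (0.47 ± 0.13), were also higher at estrus. Il1r1 (-0.59 ± 0.14), Tollip (-0.43 ± 0.11), Capn2 (-0.49 ± 0.10) and Acsl3 (-0.56 ± 0.15) were lower, and these 8 had limma adjusted p of 0.0127 to 0.0442. For Il18 the stage difference was 0.21 ± 0.31 (SE) in WT and 1.95 ± 0.31 in KO. It was also smaller in WT than in KO for Bcl3 (0.40 and 1.10), Pycard (0.56 and 1.25), Gpx1 (0.20 and 0.79) and Cbr1 (0.31 and 0.63). The same held for Il1r1 (-0.33 and -0.85), Tollip (-0.10 and -0.77), Capn2 (-0.05 and -0.93) and Acsl3 (-0.45 and -0.68). For Alox15 it was -1.44 in WT and -0.29 in KO. Over all tested genes the stages also stood apart more often in KO. Estrus lay below diestrus without overlap in 26% of them in KO and in 8.99% in WT. The change of the stage difference between the genotypes was called by limma in 0 of the 90 genes and in 0 of the 15180 tested genes. The count of 9 was 0 if WT diestrus 2 or either KO diestrus library was left out, 1 for WT diestrus 1, 5 for KO estrus 1 and 5 after removal of the length trend.

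**Figure D4:**
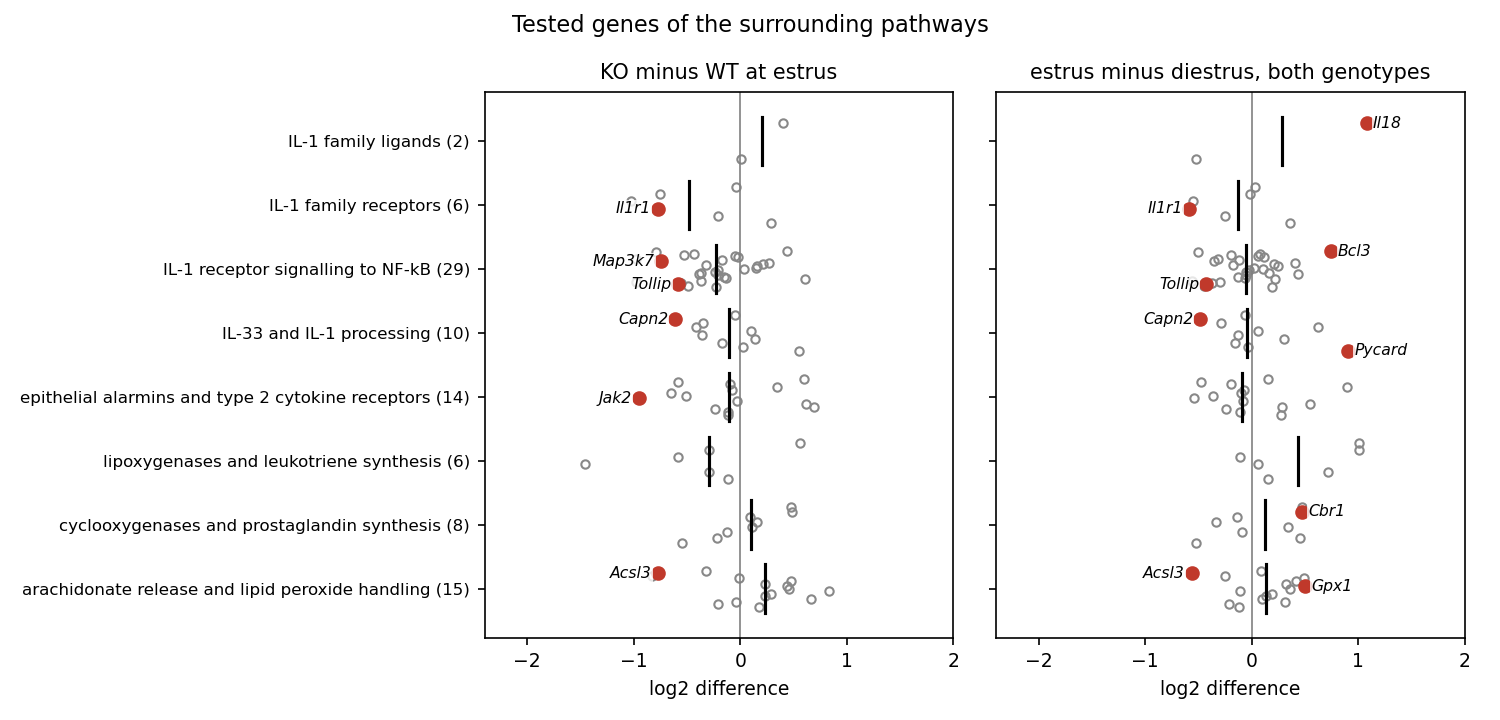
Log2 difference (x axis) of each tested gene in the 8 pathway lists (rows, number of genes in brackets) for KO minus WT at estrus (left) and estrus minus diestrus over both genotypes (right). Filled points passed the limma test at an adjusted p under 0.05, open points did not, and vertical bars are list medians; the 6 called genes on the left all lie below 0.

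Il33 and Alox15 are also made by cells outside the gate, so the markers of those cells are given beside them. Of 8 fibroblast markers, 2 passed the filter, and their sum was nearly all Dcn, the matrix proteoglycan decorin. Dcn had 630, 1007 and 1591 counts in WT estrus, 731, 3065 and 88 in KO estrus, 615 and 561 in WT diestrus and 64 and 99 in KO diestrus. Its lowest libraries, KO estrus 3 and both KO diestrus libraries, were also the lowest for Il33, whereas KO estrus 2, the highest for Dcn, had 121 Il33 counts. The defining collagen genes were near 0, with Col1a1 at 1 to 11 counts and Col3a1 at 3 to 21. The list summed to 654 to 1616 counts in WT estrus, 108 to 3103 in KO estrus, 588 to 651 in WT diestrus and 101 to 120 in KO diestrus, and its part in the Il33 difference was not tested. The 8 endothelial and lymphatic markers summed to 44 to 160 counts in any library, led by Pecam1 and Prox1, and the 8 basal markers to 430 to 2077, led by Krt14 and Krt17. The top of that range was WT estrus 1, with 903 Krt14 and 893 Krt17 counts. The other WT estrus libraries had 191 to 297 and 201 to 218. Oxtr (12, 1 and 3 counts in WT estrus 1, 2 and 3) and Trp63 (10, 8 and 8) were low. The remaining basal markers were not highest in WT estrus 1. Krt5 had 54, 32 and 77 counts in WT estrus and 502, 149 and 47 in KO estrus. Acta2 had 167, 138 and 407 counts in WT estrus, Myh11 25, 16 and 60, and Mylk 13, 13 and 23. WT estrus 1 also had the highest Alox15 count at estrus, and the part of basal cells in that value was not tested. The 8 luminal progenitor and alveolar markers with a row summed to 1796 to 3737, led by the milk proteins Ltf and Csn3. Itga2, which encodes the CD49b of the gate, had 203, 221 and 195 counts in WT estrus, 174, 96 and 57 in KO estrus, 251 and 196 in WT diestrus and 236 and 339 in KO diestrus. Its KO estrus libraries were the lowest, as for Il1rl1, without passing the limma test between genotypes (log2 -1.06 ± 0.32, adjusted p = 0.0732). Elf5, a factor of alveolar progenitors, had 35, 29 and 38 counts in WT estrus and 14, 18 and 21 in KO estrus (log2 -0.92 ± 0.31, limma adjusted p = 0.0970). Of the 6 tested markers of that list, 4 lay below 0 at estrus (median log2 -0.32), and limma called none. The others than Itga2 and Elf5 went both ways. At estrus the log2 difference of KO from WT was 0.32 ± 0.21 for Aldh1a3 and 0.15 ± 0.24 for Csn3. It was -0.20 ± 0.21 for Kit and -0.44 ± 0.48 for Ltf. The part of progenitor cells in the Il1rl1 difference was not tested.

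The markers of the cells that answer IL-33 are given by list. The 3 mast cell and basophil markers with a row (of 10 listed) summed to 3 to 8 counts per library, with Hdc and Gata2 the highest. The 11 macrophage markers summed to 307 to 407 counts in WT estrus, 334 to 421 in KO estrus, 384 to 413 in WT diestrus and 362 to 381 in KO diestrus, mostly Csf1r and Cd68, and Adgre1 had 0 to 5 counts. C1qb, a complement chain made by macrophages, did not follow that sum. It had 8, 16 and 3 counts in WT estrus, 44, 30 and 8 in KO estrus, 12 and 3 in WT diestrus and 1 and 0 in KO diestrus, so that all KO estrus libraries lay above both KO diestrus libraries. C1qa and C1qc, at 0 to 19 counts, were also at 0 or 1 in both KO diestrus libraries, and Lyz2 ran from 0 to 81. Of 7 eosinophil markers 2 had a row. Ccr3 had 0 or 1 count, while Il5ra, the IL-5 receptor chain, had 51, 44 and 36 counts in WT estrus, 11, 3 and 20 in KO estrus, 85 and 64 in WT diestrus and 20 and 26 in KO diestrus. Il5ra fell in KO at estrus (log2 -2.14 ± 0.50, limma adjusted p = 0.0410) , and like Alox15 it had its highest values in WT diestrus. That call was kept without KO estrus 2 or KO estrus 3, and lost without any 1 of the other 8 libraries (adjusted p from 0.0645 without WT diestrus 2 to 0.09999 without KO estrus 1) and after removal of the length trend (0.0537). Whether it came from the sorted cells or from other cells was not tested. The 7 ILC2 and T cell markers with a row summed to 447 to 676 counts in WT estrus, 624 to 969 in KO estrus, 620 to 657 in WT diestrus and 654 to 683 in KO diestrus, nearly all from Rora and Foxp3. Rora had 529, 570 and 370 counts in WT estrus and 528, 651 and 861 in KO estrus (log2 0.47 ± 0.20, limma adjusted p = 0.165), and Cd4 had 0 to 2. Il2ra, the IL-2 receptor alpha chain, had 19, 17 and 10 counts in WT estrus, 9, 6 and 8 in KO estrus, 8 and 35 in WT diestrus and 5 and 0 in KO diestrus. Like Il33 and Alox15, it had each KO library below each WT library of its stage, at low counts and without passing the limma test (adjusted p = 0.463 at estrus and 0.482 at diestrus). The part of these cells in the results was not tested. The 2 adipocyte markers with a row, Cidec and Adrb3, summed to 0 to 4.

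**Figure D5:**
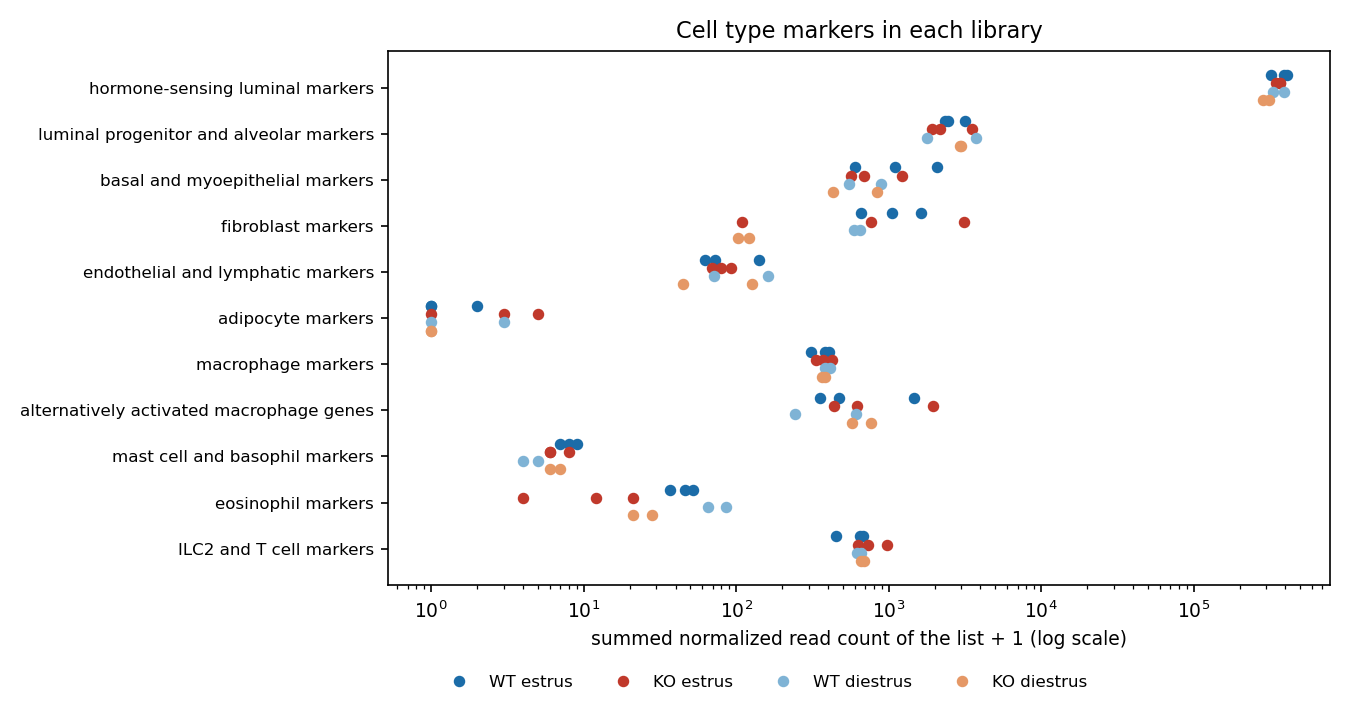
Summed normalized read count plus 1 (x axis, log scale) of each cell type marker list (rows) in every library (points, coloured by genotype and stage). The hormone-sensing luminal list, mostly Krt8 and Krt18, exceeds every other list in each library. Mast cell markers sum to at most 8, and the fibroblast sum is lowest in KO estrus 3 and KO diestrus.

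Over the 10 libraries the 4 genes did not share 1 profile. Pearson's r of their log2 values, given as a description over libraries that share the 4 groups, was 0.54 for Il33 with Alox15, 0.48 for Il1rl1 with Alox15, 0.28 for Il1rl1 with Il1rap, 0.26 for Il33 with Il1rl1, 0.10 for Il1rap with Alox15 and 0.04 for Il33 with Il1rap. The genes most like Il33, by r over the 10 libraries among genes with a mean of at least 50, were the kinase gene Stk26 (0.88), the collagen prolyl hydroxylase P4ha2 (0.87) and Fam177a (0.86). Those most like Alox15 were the zinc finger gene Bnc1 (0.93), the actin-severing Scin (0.93) and Rprd1b (0.93). Bnc1 had 215, 70 and 32 counts in WT estrus, 10, 11 and 11 in KO estrus, 181 and 206 in WT diestrus and 25 and 22 in KO diestrus. Bnc1 was picked by this likeness, and its highest library was WT estrus 1, whereas that of Alox15 was WT diestrus 1. Among those most like Il1rl1 were Zfp408 and Zc3h7a (both 0.95), and those most like Il1rap were Ppp2r5e (0.96), Parp12 (0.95) and Xrcc5 (0.92).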

How the data were processed

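Total RNA of 10 libraries of sorted mammary cells was sequenced, per the labels. The submitters' processing notes name STAR, HTSeq, DESeq2 and the build mm10, without versions or settings. What the authors deposited is treated as a score: normalized read counts, rounded to whole numbers and not divided by gene length. Of 26312 Ensembl genes, 26249 had a symbol in GENCODE M21. Values were used as log2(value + 1) for the 15180 genes with a mean of at least 10, and limma 3.58.1 (R 4.3.3) fitted 1 mean per group, with the spread moderated along mean level. Tests were two-sided, with Benjamini-Hochberg adjustment over the whole table and a threshold of 0.05. A count model was not used because the values are not read counts. The fit was tested on simulated data. Levels per length divide by merged exon bases.

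Members, gene lists and tests were chosen with earlier results of these data known. With 3 or 2 libraries of each genotype per stage, the averaged stage difference is independent of the genotype differences that chose the members only where both genotypes vary alike. The 8 pathway lists were IL-1 family ligands, IL-1 family receptors, receptor signalling to NF-kB, processing of IL-33 and IL-1, epithelial alarmins and type 2 cytokine receptors, lipoxygenases and leukotrienes, cyclooxygenases and prostaglandins, and arachidonate release with lipid peroxide handling. Of their 128 genes 117 had a row and 90 were tested. The 11 marker lists were hormone-sensing luminal, luminal progenitor and alveolar, basal, fibroblast, endothelial and lymphatic, adipocyte, macrophage, alternatively activated macrophage, mast cell and basophil, eosinophil, and ILC2 and T cell. Named from each pathway list were up to 4 called genes per contrast, or the 2 of highest mean in a list without a call, from each marker list the 2 of highest mean, and per member the 3 genes of highest Pearson r, of which 1 is not reported here. Other genes were named after their values were seen. Promoter sequences are RefSeq's, build GRCm38.p6, found for Il33, Il1rl1 and Il1rap. Alternatives were other pseudocounts, filters and scalings, no trend, library weights, the replicate block, the compared libraries alone and each library left out. Removal of each library's linear trend on exon length was added after seeing the data.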

Additional observations from a re-analysis of the deposited data

Results flagged for a closer look

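In 3 of the named pathway genes every KO library lay on one side of every WT library at estrus and on the opposite side at diestrus. Such a switch was found in 5 of the 90 tested pathway genes (5.56%) and in 5.65% of all tested genes, so the share among the pathway genes was near the background. The difference between the 2 genotype effects (estrus less diestrus, log2) was 1.74 for Il18, 0.70 for Bcl3 and -0.88 for Capn2. This difference was tested with limma and did not pass in these genes (adjusted p of 0.237, 0.277 and 0.192). Over all 15180 tested genes limma called 0 such differences, with 2150 at an unadjusted p under 0.05.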

How the results depend on the processing

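The genotype differences of Il33, Il1rap and Alox15 kept their direction at both stages, and that of Il1rl1 at estrus, under every alternative run. With 1 library left out, log2 KO minus WT ran from -1.89 to -1.14 (Il33), -2.44 to -1.60 (Il1rl1), -1.42 to -0.45 (Il1rap) and -1.21 to -0.50 (Alox15) at estrus, and from -3.54 to -1.78, -0.55 to 0.13, 0.04 to 1.84 and -2.20 to -1.81 at diestrus. Il1rl1 alone turned, to 0.06 and 0.13. The stage difference of Alox15 stayed at -0.86 with no filter on low values and with no trend but was no longer called (limma adjusted p = 0.0766 and 0.0824). It ran from -1.04 to -0.69 with 1 library left out, where 7 of 10 omissions lost the call. Those of Il33, Il1rl1 and Il1rap passed under none, with adjusted p of 0.0705 at the lowest. The count of 6 pathway genes at estrus was 0 with no filter, no trend or the estrus libraries alone, 2 with library weights, 1 without the length trend and 0 to 10 with 1 library left out. The count of 0 at diestrus was 2 with library weights, 1 with the diestrus libraries alone and 0 to 1 with 1 library left out. The count of 9 between stages was 3 with no filter or no trend, 17 with library weights, 5 without the length trend and 0 to 13 with 1 library left out. The causes of these shifts were not tested. A mean of at least 50 removes Il1rap. Under equal totals or quantile normalization the median of all genes moved by less than 0.1.

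Same-numbered WT and KO estrus libraries had correlations of 0.187, 0.0835 and 0.0309 of their deviations from the group means. Differently numbered ones ran from -0.147 to 0.0786, and same-numbered WT and KO diestrus libraries had -0.0363. The same-numbered estrus values were all above 0, but WT estrus 3 correlated more with KO estrus 2 (0.0786) than with KO estrus 3. Deviations sum to 0 within each group, so these correlations are not independent and cannot decide on pairing. In the main fit the numbers were not taken as pairs. Whether they mark a shared batch was not tested. With the replicate block the Alox15 stage difference was -0.72 (limma adjusted p = 0.0764), and the counts of called pathway genes were 11 at estrus and 1 at diestrus.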

Other observations

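Arg1, the arginase listed with alternatively activated macrophages, had 335, 459 and 1472 counts in WT estrus, 432, 613 and 1948 in KO estrus, 230 and 593 in WT diestrus and 567 and 763 in KO diestrus, while the other 5 genes of that list with a row had at most 12 counts in any library. WT estrus 3 and KO estrus 3 stood apart from the other libraries. Foxp3, known as the regulator of regulatory T cells, had between 62 and 98 counts in every library, with Cd4 at 0 to 2. Tslp and Il25, the epithelial alarmins that act beside IL-33, had 0 to 2 counts, and their genes were below the filter. The receptor chains for IL-4 and IL-13 were well covered, with Il13ra1 at 4754 ± 1699 counts in WT estrus and 3259 ± 1378 in KO estrus (SD, n = 3 and 3) and Il4ra at 1760 ± 690 and 1083 ± 302, and neither passed the limma test at estrus (adjusted p = 0.245 and 0.180).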
